A study of Mus musculus with 74 samples.

Results

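Gm13235 is a mouse KRAB zinc finger protein (KRAB-ZFP), one of a large family of proteins that recognise DNA with arrays of C2H2 zinc fingers. Most family members act as repressors: through the KRAB domain they attract TRIM28 (also named KAP1), a scaffold around which heterochromatin forms. Many KRAB-ZFPs are known to bind transposable elements and to keep them silent in early embryonic cells. The peaks described here are every entry listed under the name Gm13235 in the deposited peak table, 1791 of 53255 peaks.

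They come from 1 chromatin immunoprecipitation (ChIP-seq) sample of F9 embryonal carcinoma cells, a mouse teratocarcinoma line that resembles early embryonic cells. The cells carried a codon-optimised Gm13235 open reading frame with a 3XHA tag at its C-terminus, in pools of drug-resistant cells. An antibody to HA pulled down the protein, so the ChIP reads a tagged transgene product and not the endogenous protein. Peaks were called against 2 controls, an F9 input and an HA control, at p < 1e-05 and enrichment above 10. The comparison set holds the 10892 peaks of the 29 other KRAB-ZFPs that were tagged with HA in F9 cells and called against the same controls, each with 1 sample and no replicate. Of these, 22 carried the tag at the C-terminus like Gm13235 and 7 at the N-terminus, and 6 had the same labelled thresholds. The gene Gm13235 itself (mm9 chr4:145458697-145489878, plus strand) held no Gm13235 summit, and the nearest one lay 2.44 Mb from its middle.

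Of the 7 peaks with the largest enrichment 6 lay on simple repeats, and the first 3 are shown here for that reason. Each is the 200 bp around a summit in mm9, plus strand, 5′ to 3′. Capitals mark the longest stretch that repeats itself exactly with a unit of 1 to 6 bases (a tandem repeat, called where the stretch is at least 24 bases).
Slit1 intron, chr19:41707732-41707931, fold enrichment 27.34, shared with 7 other samples: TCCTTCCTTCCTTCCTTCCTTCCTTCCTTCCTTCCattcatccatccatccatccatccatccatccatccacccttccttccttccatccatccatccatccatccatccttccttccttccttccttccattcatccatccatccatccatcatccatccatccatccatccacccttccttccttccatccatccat
Intergenic, chr4:103280133-103280332, fold enrichment 24.83, shared with 6: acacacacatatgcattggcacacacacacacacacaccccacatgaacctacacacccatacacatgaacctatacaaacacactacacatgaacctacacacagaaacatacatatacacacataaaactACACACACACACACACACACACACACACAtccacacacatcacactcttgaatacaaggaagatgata
Tmco5b intron, chr2:113136111-113136310, fold enrichment 23.52, shared with 5: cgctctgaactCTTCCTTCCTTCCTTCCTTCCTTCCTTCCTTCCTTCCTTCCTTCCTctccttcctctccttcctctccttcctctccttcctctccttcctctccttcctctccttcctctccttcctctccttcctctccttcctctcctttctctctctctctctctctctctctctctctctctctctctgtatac

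The next 2 windows had no such repeat and no match in any other sample of the set, and are shown as the strongest peaks of that kind, in lower case throughout.
Snx29 intron, chr16:11394644-11394843, fold enrichment 22.21: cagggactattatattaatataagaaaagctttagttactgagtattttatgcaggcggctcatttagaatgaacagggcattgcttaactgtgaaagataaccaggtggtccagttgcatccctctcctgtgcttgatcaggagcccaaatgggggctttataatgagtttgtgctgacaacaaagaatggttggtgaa
Arfip1 intron, chr3:84435829-84436028, fold enrichment 20.83: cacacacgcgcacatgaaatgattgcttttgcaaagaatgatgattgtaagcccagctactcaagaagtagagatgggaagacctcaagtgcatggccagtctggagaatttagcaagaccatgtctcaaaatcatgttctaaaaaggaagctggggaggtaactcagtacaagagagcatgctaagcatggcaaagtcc

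A locus with no tandem repeat that was found in 8 other samples, the most for any Gm13235 locus, is shown next in lower case.
Intergenic, chr2:17910762-17910961, fold enrichment 10.47: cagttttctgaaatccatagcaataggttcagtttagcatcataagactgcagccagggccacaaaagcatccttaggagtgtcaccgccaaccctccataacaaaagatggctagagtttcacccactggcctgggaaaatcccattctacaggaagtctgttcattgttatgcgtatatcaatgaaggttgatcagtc

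The peaks were numerous and weak. Fold enrichment, the ratio of tags at the summit to the local expectation, had a median of 12.25 and an interquartile range of 10.96 to 14.37, close to the limit of 10. In all, 838 peaks lay between 10 and 12, 639 between 12 and 15, 298 between 15 and 20, and 16 above 20. The largest value was 27.34, in Slit1, which encodes a secreted axon guidance ligand. Among the 30 samples Gm13235 ranked 2nd in number of peaks, behind Zfp457 with 1812, but 27th in median fold and 28th in the largest fold. The median of the 29 others was 22.68 for median fold and 70.43 for the largest. Peak lists follow each sample's thresholds, so these ranks also carry the stringency at which each sample was called. Per its methods, the study first used p < 1e-10 and enrichment above 20, and relaxed these where too few peaks were found. The thresholds of Gm13235 are the least strict that the study describes, and 13 of its peaks passed the first ones.

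Among the 6 samples called at the same labelled thresholds, the median fold lay on both sides of the 12.25 of Gm13235. It was 11.87 in Zfp457, 11.93 in Zfp709, 12.06 in Zfp933, 12.32 in Zfp458, 13.89 in Zfp600 and 14.31 in Zkscan17, and the number of peaks ran from 120 (Zfp600) to 1812 (Zfp457). Median tags were 23 in Zfp457 and Zfp709, 32 in Zfp458, 30 in Zfp933, 10 in Zfp600 and 9 in Zkscan17. With 7 samples the exact test cannot go below p = 0.1429, and the number of peaks gave p = 0.429 before adjustment.

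The called regions were 251 bp wide at the median (interquartile range 223 to 286) and held 29 tags at the median (24 to 35). A count of 29 has a 95% Poisson interval of 19.4 to 41.6, for counting error only, so most single peaks could not be ranked against each other by tags. Of the fold values, 29.3% (524 peaks) were whole multiples of 1.307 within 0.006, from 8 to 19 steps, and the commonest single values were 13.07 (105 peaks), 14.37 (97 peaks) and 11.76 (96 peaks). A fold of 13.07 therefore tied 105 peaks at one value. The deposited score, -10 times the log10 of p, had a median of 109.38 and a maximum of 327.42, and 1108 peaks passed p < 1e-10 at the same enrichment.

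The deposited false discovery rate was at or below 5% in 1653 peaks and above 5% in 138. The rate was highest where the score was highest: every one of the 138 had a score of at least 168.9, with a median of 189.3, beside 105.8 in the 1653. The 3 peaks at a rate of 100% all scored at least 294, and the Slit1 peak was one of them. The intergenic chr4 window printed above had a rate of 61.54%. A cut on this rate therefore removes peaks of the highest score first. The rate was used as deposited, and whether the peaks with a high rate are reliable was not tested.

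**Figure D1:**
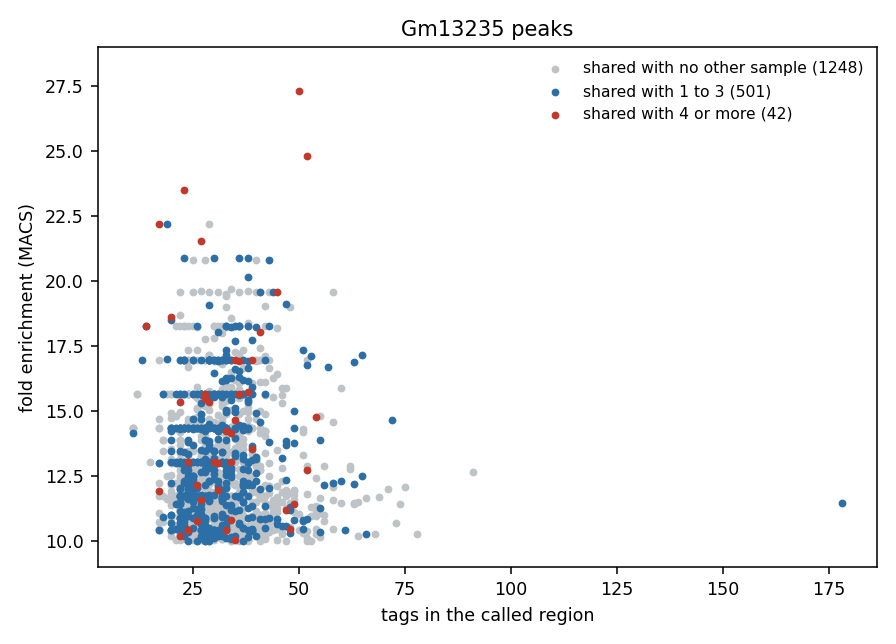
Fold enrichment as MACS gave it (y axis) against tags in the called region (x axis) for each of the 1791 Gm13235 peaks, coloured by how many of the 29 other F9 HA samples share the locus. Values crowd between 10 and 15 in horizontal rows, and 5 of the 7 points above 21 are shared with 4 or more samples.

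Measured against the other 29 samples as whole sets, Gm13235 was inside their range in 8 of 8 measures. The exact two-sided permutation test of the label over the 30 samples, adjusted over the 8 measures by the Benjamini-Hochberg method, called none (smallest unadjusted p 0.0667 for the number of peaks, adjusted 0.533). The smallest p that this design allows is 0.0333 before adjustment and 0.267 after it for a measure that stands out alone, so no single measure could have been called at 0.05. The number of peaks, 1791, compared with a geometric mean of 236.5 and a range of 67 (Rex2) to 1812 (Zfp457). Median width, 251 bp, compared with a mean of 333 ± 195.6 bp (SD, n = 29), and median tags, 29, with 58.24 ± 53.36, both with adjusted exact p = 0.8. The G+C content of the 200 bp window had a median of 44%, against 46.47% ± 4.627 over the others (SD, n = 29, adjusted exact p = 0.8). The observed over expected CpG ratio averaged 0.1896, against 0.2567 ± 0.1391 (SD, n = 29, adjusted exact p = 0.8).

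**Figure D2:**
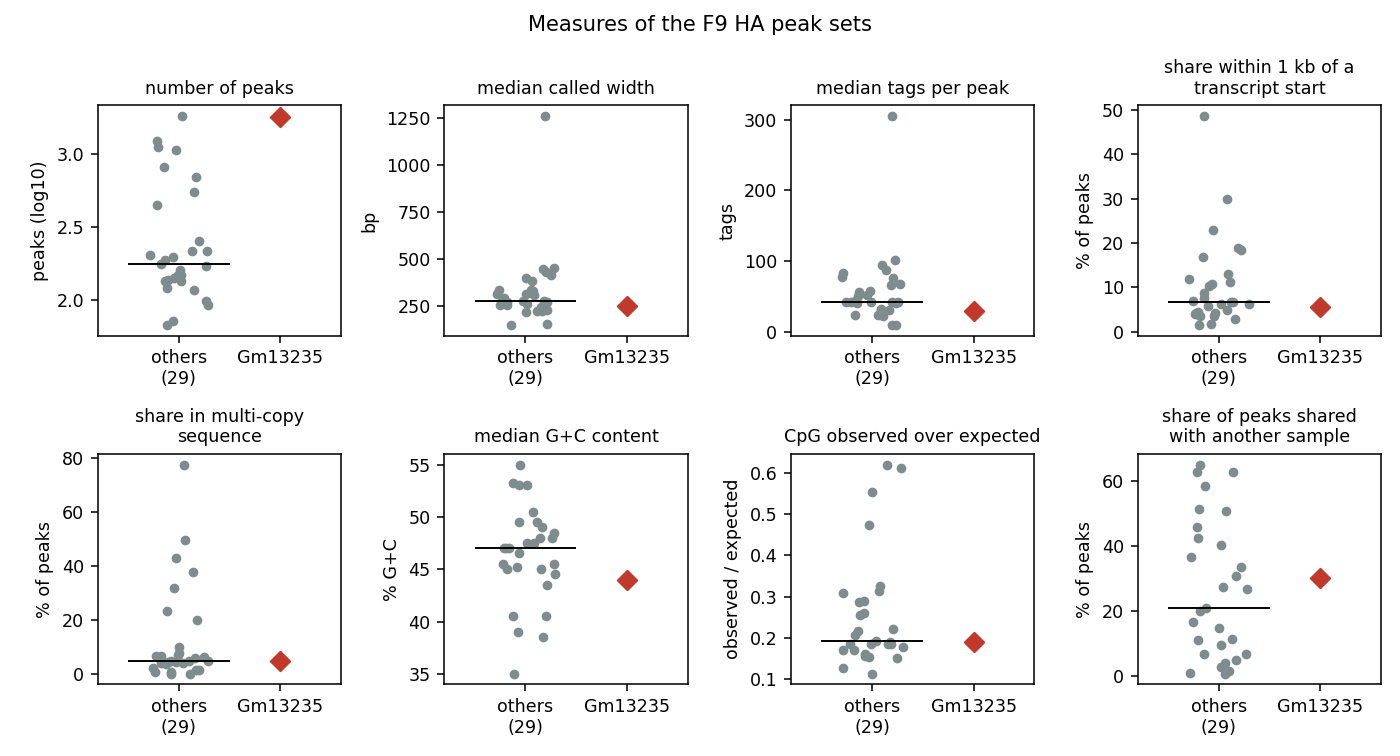
The 8 measures of each F9 HA peak set. Grey points are the 29 other samples, the line is their median and the red diamond is Gm13235, with units on each y axis (peaks on a log10 scale). The diamond lies inside the range of the points in 8 of 8 panels.

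Near genes the set resembled the genome with a shift towards introns. Of the 1791 summits, 47% (95% Wilson interval 44.6 to 49.3) lay in introns, 50.2% (47.9 to 52.5) between genes, 1.34% in coding exons, 1.06% in untranslated exons and 0.447% in other exons. In 25584 windows spaced evenly along the genome the intron share was 37.4% (36.8 to 38) and the intergenic share 59%, and in the pooled 29 samples 40.7% and 54.3%. The share of introns was higher in 5 of the 29 other samples, and 892 summits lay in 827 genes, with 452 of them on genes of the plus strand (50.7%, beside 50.3% of all genes).

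Summits lay somewhat nearer to transcript starts than evenly spaced windows did. Within 1 kb of a start lay 100 summits, 5.58% (4.61 to 6.75), beside 4.24% of evenly spaced windows and 8.21% of the pooled peaks of the others. Across the 29 samples this share ran from 1.49% (Rex2) to 48.6% (Zfp456), with a mean of 10.44% ± 9.957 (SD, n = 29, adjusted exact p = 0.8). The median distance to a start was 17.6 kb, against 28.8 kb for evenly spaced windows and 15.7 kb for the peaks of the others.

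Most windows were unique sequence. The median copy number of the 24-base words in the window was 1 in 1618 windows (90.3%), and was 10 or more, here called multi-copy, in 85 (4.75%, 3.85 to 5.83). Evenly spaced windows were multi-copy in 13.2% of cases. The other samples averaged 12.91% ± 18.32 (SD, n = 29, adjusted exact p = 0.8), from 0 (Zfp456) to 77.6% (Rex2), and 15 of the 29 lay above Gm13235. Reads with several placements went to the best match, and a random choice was made only among equally good ones. The part of this in the low multi-copy share was not tested.

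An interspersed repeat also recurred among the windows. A search took 14-base words that were not simple repeats and stood in at least 15 windows. They also had to be at least 3 times as frequent as in windows 1 kb to either side. The search found 13 words, some of which overlapped each other. CAGAAGAGGGCATC, for example, stood in 22 Gm13235 windows and in a mean of 4.5 flanking ones. At least 1 of the 13 was in 46 windows, 2.57% (1.93 to 3.41), beside 0.893% (0.633 to 1.26) of flanks, 0.571% (0.485 to 0.671) of evenly spaced windows and 1.08% of the pooled other peaks. These words were picked on the same windows, so the excess is a description. In the 7 other samples with at least 500 peaks the share ran from 0 (Zfp808) through 1.27% (Zfp457) to 2.33% (Zfp759, 1.5 to 3.61), and the interval of Gm13235 overlapped that of Zfp759. The choice of words favours Gm13235 in this order. A window that holds the words is printed with capitals from the first to the last of them, including bases between words. As background, they match the tRNA-derived B2 family of short interspersed elements. No repeat annotation was used here, so families were not assigned.
Chr9:64005922-64006121, plus strand: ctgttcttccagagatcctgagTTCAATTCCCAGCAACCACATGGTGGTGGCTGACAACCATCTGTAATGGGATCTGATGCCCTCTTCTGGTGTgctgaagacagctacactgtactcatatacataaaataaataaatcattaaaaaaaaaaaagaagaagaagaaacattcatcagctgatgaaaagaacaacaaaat

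Tandem repeats were more frequent than in the genome, and inside the range of the other samples. They were found in 157 windows, 8.77% (7.54 to 10.2), against 4.8% of evenly spaced windows, 7.46% of the pooled other peaks, and a median of 5.56% (0 to 24.2, highest in Zfp600) over the 29 samples, 9 of which were higher. The commonest unit was AC or its complement, in 50 windows (2.79%, beside 1.49% of evenly spaced windows and 2.03% of the pooled other peaks). AG followed in 21 windows (1.17%, beside 0.672% and 0.679%) and AAGG in 10 (0.558%, beside 0.145% and 0.34%). Stretches of at least 30 purines or pyrimidines stood in 125 windows, 6.98% (5.89 to 8.25), beside 2.76% of evenly spaced windows and 4.21% of the pooled other peaks. The median of the 29 samples was 2.86%, and 5 of them were higher than Gm13235. Both shares were larger among peaks of larger fold, a description with no test. In the 452 peaks of lowest fold (10 to 10.96) 6.64% held a tandem repeat and 5.31% such a stretch, while in the 367 of highest fold (14.38 to 27.34) the shares were 13.9% and 12.8%. Of the 7 peaks with the largest fold, 6 held a tandem repeat, and of the first 25, 8 did.

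Most of the short sequence elements searched on both strands were at or near their genome rate. The octamer ATGCAAAT, bound by POU factors, was in 1.79% of windows (1.27 to 2.51), beside 1.9% of evenly spaced ones. The CTCF core GGNGGCAG was in 5.25% beside 4.68%, the YY1 word AAGATGGC in 1.51% beside 1.83%, and the B box GTTCGANNC of RNA polymerase III genes in 0.893% beside 0.942%. The NFY word CCAATCAG was in 0.614% beside 0.668%, the GC box GGGGCGGGG in 0.391% beside 0.36% and the CRE TGACGTCA in 0.112% beside 0.105%. The ETS word CCGGAAGTG was in 0 of 1791 windows, which allows a share of up to 0.168%, and in 0.0274% of evenly spaced ones. The NRF1 word GCGCATGCG was in 2 windows (0.112%, 0.0306 to 0.406), beside 0.0274% of evenly spaced ones. The ZNF143 word ACTACAATT was in 5 (0.279%, 0.119 to 0.652), beside 0.145% of evenly spaced ones and 0.0735% of the pooled other peaks. Both shares were above those of evenly spaced windows with overlapping intervals, and rested on too few windows to compare. Of 8-base words in at least 25 windows, the most over-represented against the flanks was ACACTTCT, in 25 windows against a mean of 8, a ratio of 3.12 among all words searched. The 12 highest ratios, from 2.34 to 3.12, belonged to words in at most 36 windows (2.01%).

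Nearly 1 in 3 Gm13235 loci appeared in another sample of the set. With windows overlapping by at least 25%, so that summits lay at most 150 bp apart, 543 of 1791 loci (30.3%) were shared with at least 1 of the 29 samples. The background is 23.3%, the share of the 29 samples' own peaks that another F9 HA sample also held, and 0.106% of evenly spaced windows met one of their peaks. By sample the share ran from 0.6289% (AW146154) to 65.19% (Zfp953), with a mean of 26.51% ± 21.29 (SD, n = 29), and Gm13235 ranked 13th of 30 (adjusted exact p = 0.933). The difference from that mean, 3.808 percentage points, turned to -0.7088 without Zfp457, the largest partner, and was 0.549 among the samples of the same thresholds. Most shared loci were shared with 1 sample (326), 131 with 2, 44 with 3 and 42 with 4 or more.

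The 5 largest partners by number of loci all carried a C-terminal tag. Zfp457 shared 218 loci, 12.2% of the Gm13235 list and 12% of its own, with summits 28 bp apart at the median. Zfp759 shared 134 (7.48% and 16.4%) and Zfp709 131 (7.31% and 10.7%). Gm13145 held 110 of the Gm13235 loci (6.14%), matching 24.5% of its own list, and Zfp458 held 51 (2.85%), matching 24.6%. At the shared loci the median fold was 12.71 in Gm13235 and 12.43 in Zfp457, whose whole list had 11.87. For Gm13145 the corresponding values were 13.73, 22.96 and 22.68, its list having been called at a higher enrichment limit. Relative to list size the highest was Zfp953, with 30.4% of 135 peaks, followed by Zfp874b with 26.1% of 92.

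The share of a partner's list varied with tag end, with overlap between the ends. Of the 22 other samples with a C-terminal tag, 20 shared a locus, 527 Gm13235 loci in all, and the median share of their lists was 11.3% (0 to 30.4). Of the 7 with an N-terminal tag, 4 shared a locus, 28 in all, and the median share was 0.0939% (0 to 2.5). Each protein was tagged at 1 end, so tag end and protein cannot be told apart. The shares of the C-terminal samples were uneven. In 13 of the 22 at least 10.3% of the list was shared, while the other 9 lay between 0 and 2.03%, inside the range of the N-terminal samples. Gm13150 and Zfp808 shared 0 of 98 and 0 of 544 peaks, and Zfp429, Zfp712, Zfp874a, Zfp273, Zfp58, Zfp456 and Zfp738 shared 0.568% to 2.03%.

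**Figure D3:**
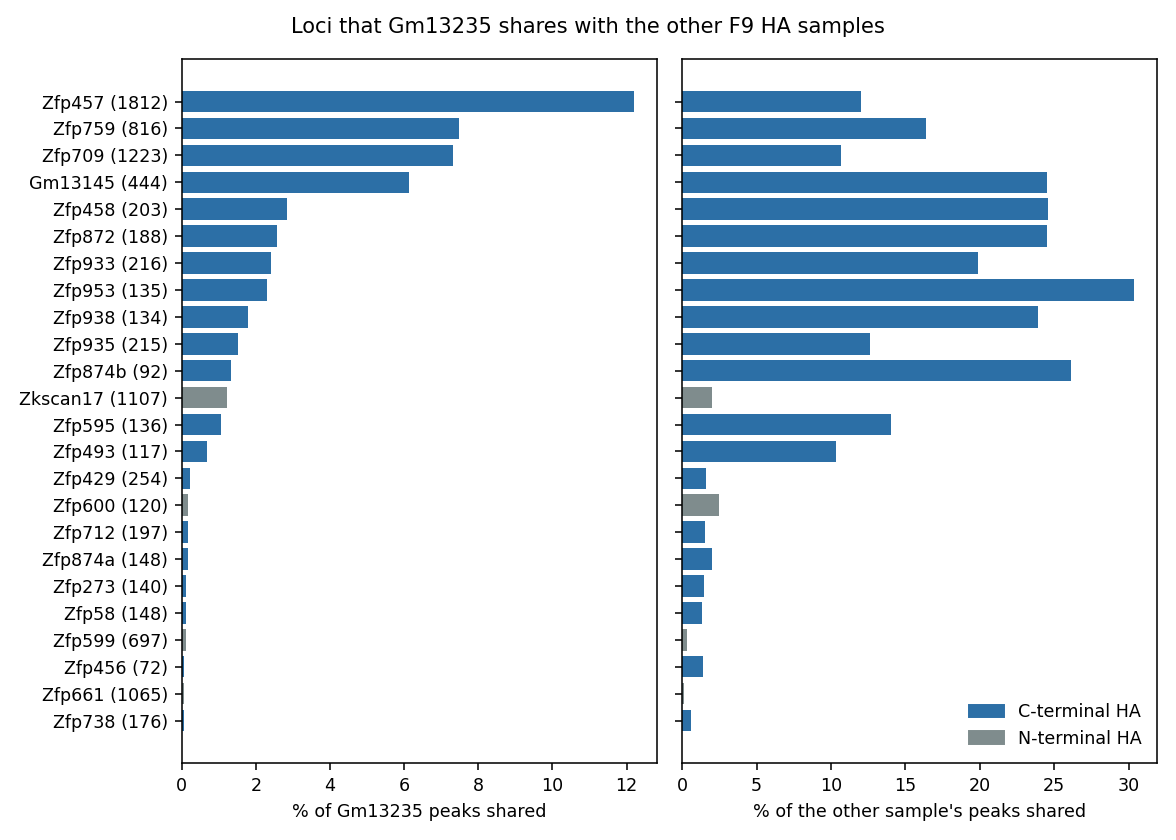
Loci shared by Gm13235 with each F9 HA sample that shares at least 1, as a percentage of the 1791 Gm13235 peaks (left) and of the other sample's own peaks (right), with its number of peaks in brackets. Blue bars are C-terminal tags and grey bars N-terminal ones, and Zfp457 is the longest on the left at 12.2% and Zfp953 on the right at 30.4%.

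Shared loci had larger folds and more simple repeats than unshared ones. The median fold was 11.89 in the 1248 loci found in no other sample, 12.43 with 1 sharing sample, 13.32 with 2, 14.34 with 3 and 14.2 with 4 or more. The median G+C content was 43%, 45%, 46%, 48.8% and 49.5% in the same order. These are descriptions over loci with no test. A tandem repeat was in 7.13% (5.83 to 8.7) of unshared loci, 10.1% with 1 sharing sample, 12.2% with 2, 22.7% (12.8 to 37) with 3 and 21.4% (11.7 to 35.9) with 4 or more. Purine or pyrimidine stretches went from 5.21% (4.11 to 6.58) to 26.2% (15.3 to 41.1). The share near a transcript start, 5.45% in unshared and 5.89% in shared loci, stayed close to its overall value. In the unshared loci the 14-base words above stood in 2.56% and in the shared ones in 2.58%.

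**Figure D4:**
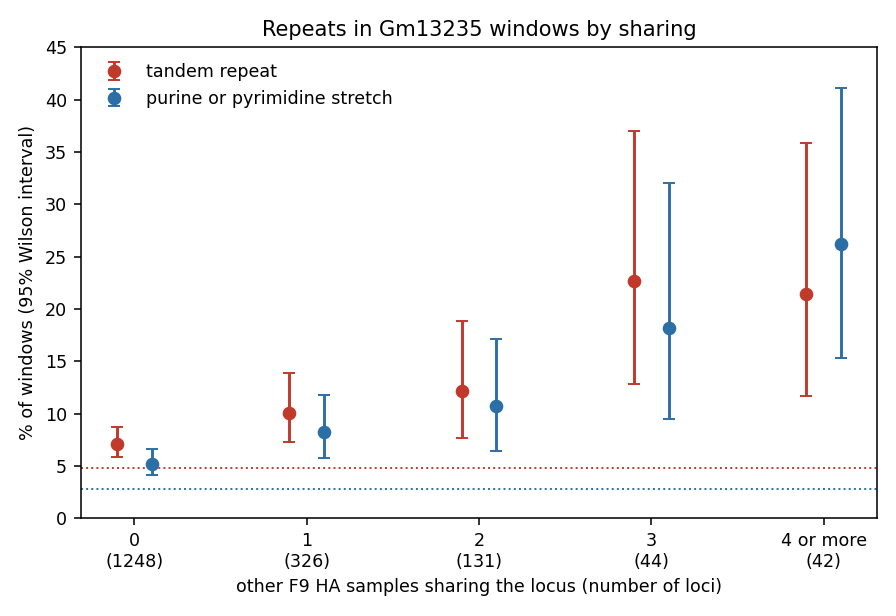
Percentage of Gm13235 windows with a tandem repeat (red) or a purine or pyrimidine stretch (blue) by the number of other F9 HA samples that share the locus, with 95% Wilson intervals for counting error. Dotted lines give evenly spaced windows (4.8% and 2.76%), and the points go from 7.13% and 5.21% in unshared loci to 21.4% and 26.2% in those shared with 4 or more.

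Most widely shared loci held no tandem repeat, which was found in 9 of the 42 loci shared with 4 or more samples (21.4%). The locus on chr2 printed above was single-copy and in 8 samples, among them Zfp456, Zfp493 and Zfp709. Others in 7 samples lay in introns of Lrp1, a lipoprotein and signalling receptor, and of Lrrc8d, a subunit of volume-regulated anion channels, with folds of 16.99 and 18.07 and no tandem repeat. These loci were picked for their sharing after the values were seen.

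Of the 25 peaks with the largest fold, 14 were shared and 11 were not, 12 lay in introns, 12 between genes and 1 in a coding exon, and 19 could be given a gene. The exon was in Pstpip1, which encodes an adaptor of the actin cytoskeleton (fold 20.91, 30 tags, shared with 2 samples). Intron peaks were in Slit1 (27.34), Tmco5b (23.52), Snx29, a sorting nexin (22.21), Gpc5, a cell-surface heparan sulfate proteoglycan (21.54), Ano6, a phospholipid scramblase (20.91), Fa2h, which hydroxylates fatty acids (20.83), and Arfip1 (20.83). They continued with 1700007G11Rik (20.83), 4930555B11Rik (20.17), Invs, a ciliary protein (19.61), Myo10, a myosin of filopodia (19.6), and Eif2ak4, the amino acid-sensing kinase GCN2, 127 bp from a start (19.6). Intergenic peaks had their nearest start at Olfr291, Gm14488, Gm17153, Gstt3, Hhla1 and Col8a2, of which Gstt3, a glutathione S-transferase, was 430 bp away. Fold values from 19.6 to 27.34 among the 25 peaks rested on 17 to 58 tags. The deposited false discovery rate was above 5% in 15 of these 25, beside 138 peaks in the whole Gm13235 list. As described above, that rate was highest where the score was highest.

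Over all genes, 962 of 37273 (2.58%) held a Gm13235 summit in the body or within 1 kb, and 3.8% of protein-coding ones. The most summits in any gene were 3, in 6 genes that were long, namely Dlg2 (1945 kb), Gm20388 (4435 kb), Magi1 (607.9 kb), Nckap5 (917.2 kb), Rapgef6 (176.4 kb) and Fntb (155.8 kb), where the median gene was 5.38 kb. Fntb encodes a farnesyltransferase subunit, and its 3 summits, with folds of 10.42 to 11.34, were all shared with another sample. In Magi1 and Dlg2, which encode scaffold proteins of cell junctions and synapses, none of the 3 was.

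Each gene group stands beside the 2.58% of all genes, and 3.8% of protein-coding ones, that held a summit. Of 22 pluripotency genes, among them Pou5f1, Nanog and Sox2, 0 had one, which at 3 counts allows up to 13.6%. Of 15 silencing machinery genes 0 had one, which allows up to 20%. Both limits lie above the share of all genes, so neither list can be set apart from it. With 10 kb to either side 9.091% of the 22 pluripotency genes had a summit, beside 4.207% of all genes. A list of this size is too short to compare these shares. Of 13 genes of endoderm differentiation only Gata4, a transcription factor of early endoderm, had a summit (7.69%, 1.37 to 33.3). That interval also holds the share of all genes. The Gata4 summit lay in an intron 7049 bp from a start (chr14:63882812-63883011, fold 14.05, 27 tags, no sharing sample). Of 409 zinc finger genes 7 had a summit, 1.71% (0.832 to 3.49) beside 2.58% of all genes. They were Zfp462 (18.29), Zfp169 (14.83), Zfp536 (14.14), Zfp407 (13.48), Zfp277 (11.76), Zfp704 (10.66) and Zfp750 (10.04), all in introns and each with 1 summit. Zfp462 and Zfp277 were shared with 3 other samples each.

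The next groups stand beside the 2.58% of all genes. Of 79 ribosomal protein genes 2 had a summit (2.53%), Rpl6 (14.2, 114 bp from a start) and Rpl5 (10.25, 39 bp from a start). Of 38 protocadherin genes 3 had one (7.89%, 2.72 to 20.8), Pcdh15 (13.07), Pcdha11 (12.73) and Pcdh9 (11.72), all in introns. These summits lay 21040, 21935 and 354418 bp from a start, where the median protocadherin gene was 3.75 kb. The part of gene length in this share was not tested. Histone genes held 0 of 70, which allows up to 4.29%. Olfactory receptor genes held 4 of 1251 (0.32%, 0.124 to 0.819), with Olfr1205 (18.29) the strongest, then Olfr755-ps1, Olfr56 and Olfr406-ps. Vomeronasal receptor genes held 2 of 437 (0.458%), Vmn2r82 and Vmn2r-ps36. Both receptor families have short bodies, with medians of 0.957 kb and 1.02 kb.

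By chromosome the density followed length except on a few. Chromosome 11 held 122 peaks, 1 per Mb and 1.48 times its share of length, then chromosome 2 (152 peaks, 1.24 times) and chromosome 9 (103, 1.23 times). Chromosome 14 was low with 60 peaks (0.71 times), and X lower still with 51 peaks (0.454 times, 2.85% of peaks, 2.17 to 3.72, beside 6.32% of evenly spaced windows). The pooled others were also high on chromosome 11 (1.33 times) and low on 14 (0.726) and X (0.616). Per sample, the density on X over that on autosomes was 0.435 for Gm13235 and 0.369 at the median of the others, 16 of which were lower. Zfp808 (1.68) and Zkscan17 (1.65) were among those above 1. No peak lay on Y. Peaks were spread out, with a median gap of 831 kb between neighbours and 20 of 1771 gaps under 10 kb.

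**Figure D5:**
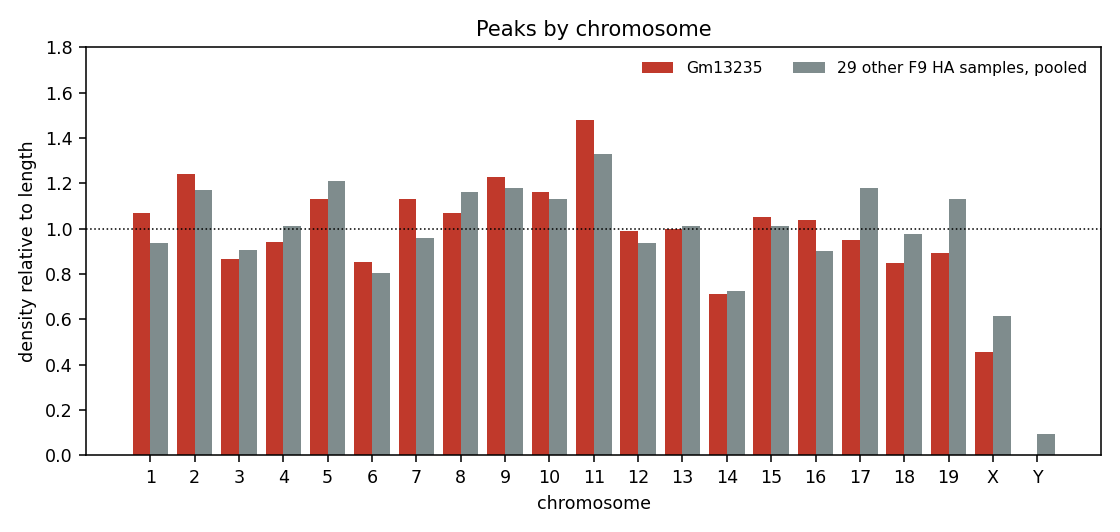
Peaks per chromosome relative to its share of genome length (1 is the dotted line), for Gm13235 (red) and the 29 other F9 HA samples pooled (grey). Chromosome 11 is highest at 1.48 and X stands at 0.454 for Gm13235.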

How the data were processed

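The peak table that the authors deposited was analysed, not the reads. Per the labels and the study's methods, reads were aligned with Bowtie to mm9 and peaks were called with MACS 1.4.2. Multi-mapping reads were placed at their best match, at random only where several were equally good. Windows were then set to 200 bp around the summit. The deposited values used were tag counts, the score (-10 log10 p), the fold enrichment ratio, and the false discovery rate in percent. Library depth is not given in the sources used here, so intervals cover counting error only. Zfp92, a name in the table (244 peaks), matched no label and was left out of the comparisons. Zfp94, labelled with a C-terminal HA tag and the same controls, matched no name in the table and was not analysed here, which left 29 of 30 other samples.

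The reference sequence was NCBIM37, the assembly mm9 denotes, with gencode vM1 genes. Samples were compared by 1 value each, with the exact permutation test and Benjamini-Hochberg adjustment. Shares have 95% Wilson intervals, and for a count of 0 the limit given is that of 3 counts. Copy number is the exact count of each 24-base word on both strands. Evenly spaced windows lie every 100000 bp. Named genes are those at the 25 peaks of largest fold (gene at the summit, else a start within 10 kb), with ties broken by score (12 peaks tied at 19.6, 6 were taken), those with 3 or more summits, and members of the gene lists. Of 16 silencing symbols 15 matched. Members, lists and measures were chosen with earlier results of these data known. The functions for overlaps, repeats and the permutation test were tested on simulated data. Python 3.11.15, numpy 2.4.6, pandas 2.3.3, scipy 1.17.1, numba 0.67.0 and samtools 1.23.1 were used. Alternatives changed thresholds, comparison samples, promoter distance, copy number, overlap, gene flank and window. The sequence of 1 shared locus is not reported here.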

Additional observations from a re-analysis of the deposited data

Results flagged for a closer look

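Loci of Gm13235 also appeared in data outside the comparison. The 18 FLAG-tagged F9 samples held 197 of the Gm13235 loci (11%), where 0.199% of evenly spaced windows met one of their peaks. Gm13251 accounted for most, with 158 (8.82% of Gm13235 peaks and 4.79% of its own), ahead of Gm13225 with 31. Zfp92, a name in the table that matches no label, held 49 (2.74% of Gm13235 peaks and 20.1% of its own 244), and 0 of 25584 evenly spaced windows met its peaks. Its tag, control and cells are not known here. The 10 F9 HA samples called against a Gm14296 control held 13 (0.726%, beside 0.113% of evenly spaced windows), and the 9 HA samples of ES cells held 4 (0.223%, beside 0.0977%). The labelled samples used another tag, control or cell type than Gm13235, and the differences were not tested. Their lists held 20728, 10478 and 9122 peaks. All of these loci lie outside the comparison, and the 4 of the ES cell samples are too few to compare. How often peaks of the other F9 HA samples met these lists is not given here. The shares are therefore not shown to be particular to Gm13235.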

How the results depend on the processing

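No paired analysis was possible because each KRAB-ZFP had 1 sample. Of the alternatives, 89 kept the direction and call of a result or moved a share by less than its interval, among them overlaps of 50% (28.75% of loci shared) and 1 bp (30.65%) and the windows without a tandem repeat (29.07%). No measure was called in any setting run, but a measure standing out alone could not be called (smallest adjusted p 0.267 with 30 samples, smallest unadjusted p 0.1429 with 7), so this says nothing about stability. Differences are Gm13235 minus the mean of the others. At p below 1e-10, 1108 peaks were left with enrichment above 10 and 13 with enrichment above 20. In the latter the sign turned for the number of peaks (-0.8519 on the log10 scale), multi-copy share (6.714 percentage points), G+C (2.616) and CpG ratio (0.02644), and the difference in shared fraction went from 3.808 to 49.47 percentage points (exact p = 0.0345, the smallest possible with 29 samples, adjusted 0.276). Against the same thresholds it turned for width (27.5 bp), tags (7.833), promoter share (0.9623), G+C (0.9167) and CpG ratio (0.005662). Without Zfp457 the shared fraction turned to -0.7088. In that setting the number of peaks also had the smallest possible p (exact p = 0.0345, adjusted 0.276). At a false discovery rate of at most 5%, 24 samples had peaks left. The cause of these turns was not tested.

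A tandem stretch of at least 40 bases was in 4.02% of windows, and 28.03% of peaks of fold below 15 were shared (both, and the windows without a tandem repeat, chosen after seeing the data). Gene bodies with 10 kb gave 4.207% of all genes, 4.156% of zinc finger, 9.091% of pluripotency, 7.143% of histone, 10.13% of ribosomal protein and 1.359% of olfactory receptor genes. At p below 1e-10 all genes gave 1.658% and ribosomal protein genes 0. In 100 bp, shares fell by construction. The octamer was then in 0.67%, beside 0.95% of evenly spaced windows, and the B box in 0.2792% beside 0.43%. The GC box was in 0.1675% beside 0.152%, the CTCF core in 2.345% beside 2.27% and YY1 in 0.8375% beside 0.891%. NFY was in 0.335% beside 0.348% and ZNF143 in 0.1117% beside 0.0586%.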
